A study of Mus musculus with 6 samples.

Results

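Ribosomal protein pseudogenes are gene copies that resemble the messenger RNA of a ribosomal protein gene and lie elsewhere in the genome. Members were chosen by symbol, as names that start with Rpl or Rps and end in -ps, with or without a number, plus Rps12l1, a copy of Rps12. Rps12l1 does not match this pattern and was added by name, and the choice was made with earlier results of these data known. The rule found 207 members among the 13685 genes in the deposited table, of which 126 were Rpl and 81 were Rps copies. They belong to 46 parent genes, and the Rps12 family was the largest with 15 members. Of the 46 parents, 9 had values here (Rpl17, Rpl23a, Rpl32, Rpl35, Rpl36, Rps12, Rps13, Rps23 and Rpsa), which covers 58 members; the other parents were not analysed here. The GENCODE M21 annotation calls 197 of the members processed pseudogenes, 4 transcribed processed pseudogenes and 6 protein-coding genes.

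RNA came from wild-type (WT) mouse CD4+ T cells taken from mesenteric lymph node and spleen. Per the labels' protocols, the CD25-negative fraction, meant to exclude regulatory T cells, was kept in culture for 4 h. The control group is called vehicle here, although the titles name it as having no treatment, and the other group received tunicamycin at 0.15 µg/mL. Each group had 3 libraries that the labels call technical replicates, so every p-value measures only the spread between libraries; strain, age and the number of mice are not given in the labels. Tunicamycin blocks N-linked glycosylation of proteins in the endoplasmic reticulum and so provokes the unfolded protein response.

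Ribosomal proteins build the small (Rps) and large (Rpl) subunits of the ribosome, and their genes are among the most highly transcribed in growing cells. Their abundant, short messenger RNAs have often been reverse transcribed and inserted back into the genome, which left many intronless copies. Most copies have lost coding capacity or lack a promoter, although some are transcribed. Sequencing reads from a copy and from its parent can be told apart only at bases where they differ.

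Over their aligned bases, the 6 members with the highest levels were identical to their parents, and the sequences below show such copies beside copies that differ. The first example is Rps12l1, the only member that passed the test between the groups. Its whole annotated transcript equals the coding sequence of Rps12 (on chromosome 10) at all 399 bases, and the first 300 are shown, chr7:56014016-56014315 on the plus strand of GRCm38. It lies opposite to Nipa1 and Gm44510, and overlaps an exon of Gm44510. Below it stands the same stretch of Rps12-ps10, chr2:122219993-122220292 on the plus strand, whose 4 substitutions from Rps12 are in capitals. Counted from 1 at the start of the Rps12 coding sequence, these are C75A, G109A, A231C and C294G.
Rps12l1: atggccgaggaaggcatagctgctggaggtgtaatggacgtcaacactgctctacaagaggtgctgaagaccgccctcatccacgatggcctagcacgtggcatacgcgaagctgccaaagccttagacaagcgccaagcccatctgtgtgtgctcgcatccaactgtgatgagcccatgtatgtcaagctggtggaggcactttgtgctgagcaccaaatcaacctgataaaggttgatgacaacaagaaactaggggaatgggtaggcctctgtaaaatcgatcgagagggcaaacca
Rps12-ps10: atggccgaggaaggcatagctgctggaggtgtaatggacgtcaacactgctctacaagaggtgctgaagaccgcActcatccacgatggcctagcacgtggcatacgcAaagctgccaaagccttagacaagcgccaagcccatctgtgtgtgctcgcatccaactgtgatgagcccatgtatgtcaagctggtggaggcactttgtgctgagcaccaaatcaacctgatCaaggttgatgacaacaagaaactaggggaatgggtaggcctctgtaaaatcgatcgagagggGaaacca

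The second example is Rps6-ps4, which matched the Rps6 coding sequence at all 750 bases. The first 250 bases are shown, chr2:75191573-75191822 on the minus strand, opposite to 2600014E21Rik. Rps6-ps3, within Rab39 on the same strand and outside its exons, is shown over the same stretch, chr9:53690034-53690283 on the minus strand. Its substitutions there are in capitals, C23T, C64T, A83G, G112A and C119T by Rps6 position, out of 11 over its length.
Rps6-ps4: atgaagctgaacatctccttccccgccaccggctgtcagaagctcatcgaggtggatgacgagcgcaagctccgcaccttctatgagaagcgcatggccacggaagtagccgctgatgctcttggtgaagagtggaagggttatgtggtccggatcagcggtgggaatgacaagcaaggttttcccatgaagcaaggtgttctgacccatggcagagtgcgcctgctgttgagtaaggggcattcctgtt
Rps6-ps3: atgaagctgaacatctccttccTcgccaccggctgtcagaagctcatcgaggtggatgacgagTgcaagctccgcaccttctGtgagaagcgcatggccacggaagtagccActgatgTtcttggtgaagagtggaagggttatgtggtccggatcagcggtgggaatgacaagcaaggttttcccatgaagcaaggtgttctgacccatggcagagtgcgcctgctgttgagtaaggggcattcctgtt

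The third example is the Rps13 family, in which 1 copy varied widely between libraries of the same group. Positions 200 to 450 of the 456-base coding sequence of Rps13 are shown, with substitutions in capitals. Rps13-ps1, chr8:87047919-87048169 on the plus strand, carries T411C and A429G, its only 2 substitutions in the coding part. Rps13-ps4, chr8:119602176-119602426 on the minus strand within Taf1c, carries T411C, 1 of its 3. Rps13-ps2, chr7:88530449-88530699 on the minus strand, carries none here or in the 453 bases it covers in all.
Rps13-ps1: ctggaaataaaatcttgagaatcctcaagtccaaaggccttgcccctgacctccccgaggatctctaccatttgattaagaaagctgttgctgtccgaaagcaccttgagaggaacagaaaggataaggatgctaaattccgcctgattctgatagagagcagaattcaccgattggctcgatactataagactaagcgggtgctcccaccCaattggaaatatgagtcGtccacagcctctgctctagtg
Rps13-ps4: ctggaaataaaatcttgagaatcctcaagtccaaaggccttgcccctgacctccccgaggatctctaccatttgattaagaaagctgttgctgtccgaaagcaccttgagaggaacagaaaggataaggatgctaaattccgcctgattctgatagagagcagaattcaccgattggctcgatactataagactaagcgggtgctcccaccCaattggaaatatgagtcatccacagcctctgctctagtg
Rps13-ps2: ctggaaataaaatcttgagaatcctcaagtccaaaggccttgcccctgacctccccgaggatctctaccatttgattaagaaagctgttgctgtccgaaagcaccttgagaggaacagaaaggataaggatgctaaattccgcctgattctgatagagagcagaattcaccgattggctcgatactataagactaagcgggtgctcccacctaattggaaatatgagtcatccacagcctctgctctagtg

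The libraries held 7412151 to 9495725 estimated counts over these genes in vehicle and 10584276 to 11211270 in tunicamycin, so every tunicamycin library was deeper than every vehicle library. Of 20 listed CD4 T cell markers, 9 had values, all above 1 TPM (a level scaled by transcript length and library), with a summed level of 4740 to 5020 TPM in vehicle and 4870 to 5050 TPM in tunicamycin. Cd4 itself was not analysed here. Summed B cell markers reached at most 1.22 TPM, and summed plasma cell markers ranged from 53 to 453 TPM across the libraries. Il2ra, which encodes CD25 and was the only listed regulatory T cell marker with values, stood at 6.87 to 8.41 TPM in vehicle and 7.74 to 14.05 TPM in tunicamycin. Summed NK cell markers stood at 9.03 to 11.3 TPM and 11.2 to 16.1 TPM in the same order. The part of other cell types in the results below was not tested.

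Counts were found for most members, but very few were abundant. Of the 207 members, 175 (84.5%) had a count in at least 1 library, 106 had one in every library, and 32 were at 0 throughout. For comparison, 44.4% of the 3578 processed pseudogenes in the table and 11.3% of 591 other genes with a -ps name had a count in at least 1 library. A mean level of at least 1 TPM was reached by 54 members, and a mean of at least 100 TPM by 6. These 6 held 96.1 to 97.9% of the members' summed TPM in each library. The median member stood at 0.395 TPM, against 2840 TPM for the median of 23 cytosolic ribosomal protein genes with values.

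The summed level of the members was 10526, 10068 and 10951 TPM in the vehicle libraries and 11644, 11080 and 11784 TPM in the tunicamycin libraries. The groups did not overlap, and their means were 10515 ± 442 and 11503 ± 373 TPM (SD, n = 3 each). Most of this difference lay in Rps6-ps4, with group means of 1377 and 2019 TPM, and Rps12l1, with 0 and 237.1 TPM. Both match the coding sequence of the parent at every base, and how reads shared with the parent were divided was not tested. All 3578 processed pseudogenes in the table, which include 197 members, summed to 18015 ± 1026 TPM in vehicle and 19851 ± 848 TPM in tunicamycin. The members made up 3.02 to 3.69% of the TPM of all genes in the table. Those genes summed to 319120 to 332870 TPM per library, which is only part of a library's TPM. The percentage is therefore not the members' share of a full library.

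The most abundant members were all full matches to a parent over their aligned bases. Identity to the parent transcript, by local alignment, had a median of 95.32% and a lowest value of 63.38%, while 34 members reached 99% and 46 lay below 90%. The alignment covered at least 90% of the member's length in 202 members. It covered only 5.2% in Rpl19-ps3, which has the lowest identity, 11.4% in Rpl18-ps1 and 4.8% in Rpl17-ps11. The identities of such members describe a short stretch only, and they were kept in the results below. Each member's transcript was also cut into all windows of 31 bases, which were looked up in the transcripts of every other gene. In 8 members every window also occurred in the parent, and 5 of these 8 had a mean of at least 100 TPM (Rps23-ps1, Rps6-ps4, Rpl36a-ps2, Rpl10a-ps1 and Rps12l1). The sixth abundant member, Rpl10-ps3, had 3.4% of windows in no other gene and matched Rpl10 at all of its 740 aligned bases. No other member reached 100 TPM; the next was Rps13-ps1 with 54.17 TPM.

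A sequence close to the parent did not go with a high level in every case. Rpl10-ps1 and Rps12-ps3, also fully contained in their parents, were at 0 in every library, and Rps13-ps2 had a mean of 0.8445 TPM. A further 8 members had no window of their own but some that were not in the parent; 2 were at 0, their median was 0.414 TPM and the highest value was 4.29 TPM. Of the 28 members with above 0 to 10% of windows in no other gene, 8 were at 0 and the median was 0.813 TPM. Of the 91 members with more than 50% of their windows in no other gene, 16 were at 0 throughout, 5 reached 1 TPM, and the highest, Rpl22-ps1, stood at 5.767 TPM. Their median was 0.0561 TPM. In the 72 members with above 10 to 50% of such windows the median was 0.844 TPM and the highest value 25.24 TPM, in Rpl21-ps6, so the medians of these 3 middle classes lay between 0.414 and 0.844 TPM. Across the 207 members Spearman's rho with the mean TPM was 0.7 for identity and -0.52 for the share of windows in no other gene. These are descriptions across genes that share libraries and families.

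**Figure D1:**
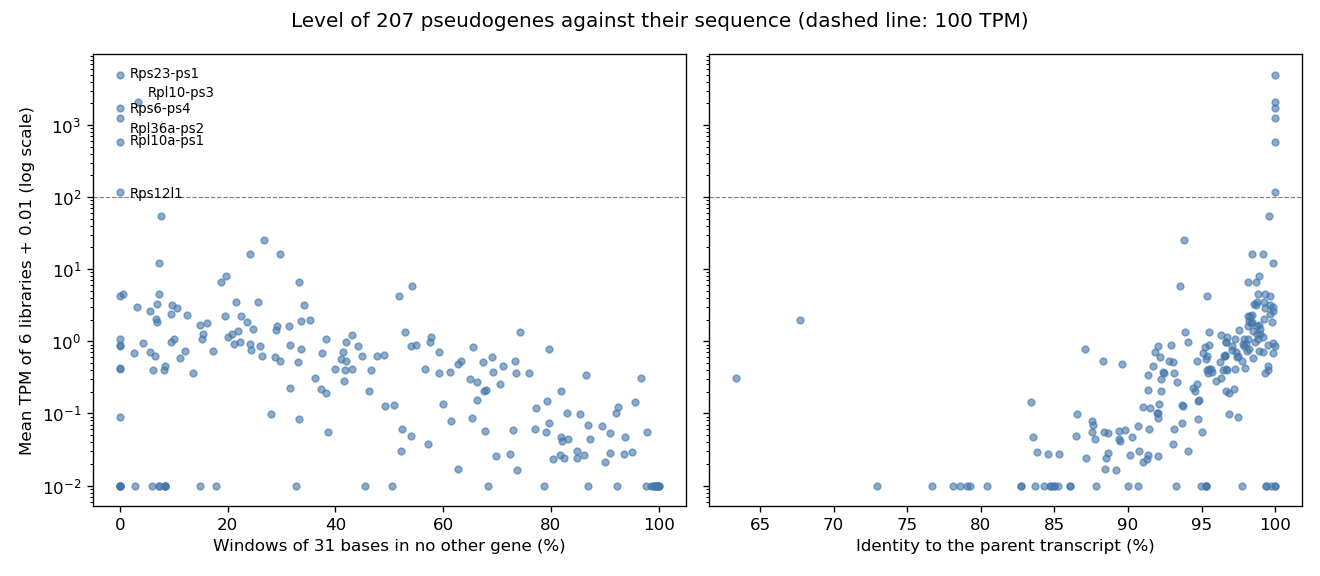
Mean TPM of 6 libraries plus 0.01 (log axis) for each of the 207 members, against the share of 31-base windows in no other gene (left, %) and the identity to the parent transcript (right, %). Each point is 1 member and the dashed line marks 100 TPM; the 6 members above it are 100% identical to the parent over their aligned bases.

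Other features were spread over the members. Transcript lengths ran from 174 to 1279 bases with a median of 483. An open reading frame at least as long as the parent's coding sequence remained in 61 members, of which 31 reached 1 TPM and 7 were at 0. Members lay on 20 chromosomes, 18 of them on X. Overlap with another annotated gene was seen in 62 members; 23 overlapped a gene on the same strand, 6 of them at an exon, and 42 a gene on the opposite strand, 4 of them at an exon. Library strand is not given in the sources used here, so reads of a member and of an overlapping gene cannot be told apart there.

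Rps12l1, the member added by name, was the only one that passed the test between the groups. It had 0 counts in all 3 vehicle libraries and 1878, 2688 and 2550 counts in the tunicamycin libraries. In TPM it stood at 0 in each vehicle library and at 197.2, 267.5 and 246.6 in the tunicamycin libraries (237.1 ± 36.11, SD, n = 3). Against a floor of 3 counts per vehicle library, which covers counting error only, its CPM (counts scaled to library size) was at least 568-fold higher with tunicamycin. The edgeR adjusted p was 2.55e-08 by the quasi-likelihood test with Benjamini-Hochberg adjustment over 3613 genes, and its direction held in 3 of 3 libraries. Only 2 genes in the table (0.0554% of those tested) passed in this direction.

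Rps12, the parent, encodes a protein of the small subunit and was present in every library at a far higher level. Its TPM was 3046, 3122 and 3220 in vehicle and 3200, 3080 and 3200 in tunicamycin, and the groups overlapped. Its log2 fold change was -0.04 with a 95% interval from -0.18 to 0.10, although the sign turned when no composition factor was used (0.004). Rps12l1 reached 6.16, 8.69 and 7.71% of the Rps12 level in the tunicamycin libraries. Since every 31-base and every 150-base window of Rps12l1 is also in Rps12, no read within the annotated Rps12l1 transcript differs from Rps12 in sequence. How the authors' quantification divided such reads was not tested.

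The call ended once the Rps12 family was counted as 1 gene. With the counts of Rps12 and its 15 pseudogenes added, an analysis chosen after seeing the data, the family had 4775, 4887 and 5309 CPM in vehicle and 5087, 4871 and 5280 CPM in tunicamycin. Its log2 fold change was 0.03 with a 95% interval from -0.11 to 0.16 (edgeR adjusted p = 0.976). A rise of Rps12l1 to 6.16 to 8.69% of Rps12 in TPM, on an unchanged Rps12, would also lie within this interval. The family test could therefore not be expected to keep the call. Nothing follows from the lost call about how the reads were divided. The summed TPM was 3134 ± 87.2 in vehicle and 3403 ± 50.0 in tunicamycin, a log2 difference of 0.119 with no overlap; the exact permutation p was 0.1, the smallest that 3 against 3 libraries allow (2-sided). In tunicamycin 1 CPM corresponded to 1.11 TPM for Rps12l1 and to 0.651 TPM for Rps12, so the sum in TPM depends on which of them holds the reads.

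No other Rps12 copy was at 0 throughout vehicle and at 10 counts or more in each tunicamycin library. Rps12-ps3, likewise contained in Rps12, was at 0 in all 6 libraries. Rps12-ps10, which carries the 4 substitutions shown above, had 8, 10 and 9 counts in vehicle and 28, 7 and 16 counts in tunicamycin. Of the 15 family members, only Rps12l1 and Rps12-ps10 passed the filter on low counts. In the whole table, 1 other gene was at 0 in every library of 1 group and at 10 counts or more in every library of the other, a gene with the symbol Nnt, at 0 in vehicle and at 143, 423 and 375 counts in tunicamycin. The annotation gives the symbol Nnt to 2 gene identifiers at the same place, of which 1 had values here.

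Rps6-ps4 had the next-smallest p among the members. Rps6 encodes the small-subunit protein that is phosphorylated when growth signals act through S6 kinase. The level of Rps6 itself was not analysed here. Every 31-base and every 150-base window of Rps6-ps4 is also in Rps6. The level of Rps6-ps4 therefore depends on how the authors' quantification divided such reads, which was not tested. Rps6-ps4 stood at 1323, 1206 and 1601 TPM in vehicle and at 2049, 1939 and 2069 TPM in tunicamycin. The groups did not overlap, with means of 1377 ± 202.6 and 2019 ± 69.93 TPM (SD, n = 3 each), and vehicle replicate 3 was the highest control. The log2 fold change was 0.53 ± 0.12 (SE) with a 95% interval from 0.25 to 0.80. It did not pass after adjustment (edgeR adjusted p = 0.362).

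That outcome depended on the analysis. Rps6-ps4 passed in 4 of 16 alternatives, namely DESeq2 with and without its independent filtering (adjusted p = 7.24e-06 and 2.18e-05), a replicate block (edgeR adjusted p = 0.00117, where 0.996% of all genes tested passed) and the fit without vehicle replicate 3 (edgeR adjusted p = 0.00143). Its highest edgeR adjusted p was 0.997, without tunicamycin replicate 2. Rps6-ps3, the copy with 11 substitutions, had 5, 11 and 29 counts in vehicle and 49, 38 and 44 counts in tunicamycin. The Rps6-ps3 log2 fold change was 1.15 with a 95% interval from -0.24 to 2.54 (edgeR adjusted p = 0.836). With the 4 Rps6 pseudogenes added the log2 fold change was 0.53 (edgeR adjusted p = 0.39).

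Rps23-ps1 was the most abundant member in the deposited TPM, where it stood above its own parent. Rps23 encodes a protein at the decoding centre of the small subunit. Rps23-ps1 had 5011, 4869 and 5081 TPM in vehicle and 5060, 4794 and 5173 TPM in tunicamycin, and the groups overlapped. Rps23 itself had 1816, 1678 and 1793 TPM in vehicle and 1440, 1447 and 1552 TPM in tunicamycin, lower in every tunicamycin library. All 425 bases of the Rps23-ps1 transcript match Rps23, and its longest open reading frame has 48 bases against the 432 of Rps23. Every 31-base and every 150-base window of Rps23-ps1 is also in Rps23. The level of Rps23-ps1 and its percent of Rps23 therefore depend on how the authors' quantification divided such reads, which was not tested. It overlaps an exon of Gm5148 on the opposite strand of chromosome 3.

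The fold change was 0.07 on the log2 scale for Rps23-ps1, with a 95% interval from -0.07 to 0.22. For Rps23 it was -0.26, with an interval from -0.40 to -0.12 that did not pass after adjustment (edgeR adjusted p = 0.323; DESeq2 adjusted p = 0.000733). Rps23-ps1 was 276, 290 and 283% of Rps23 in vehicle and 351, 331 and 333% in tunicamycin. The groups of this percentage did not overlap, and the exact permutation p was 0.1 (2-sided), the smallest possible. The log2 ratio differed by 0.258 in TPM and by 0.334 in counts. With Rps23 and both of its pseudogenes added, the log2 fold change was -0.07 with a 95% interval from -0.22 to 0.07 (edgeR adjusted p = 0.911).

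**Figure D2:**
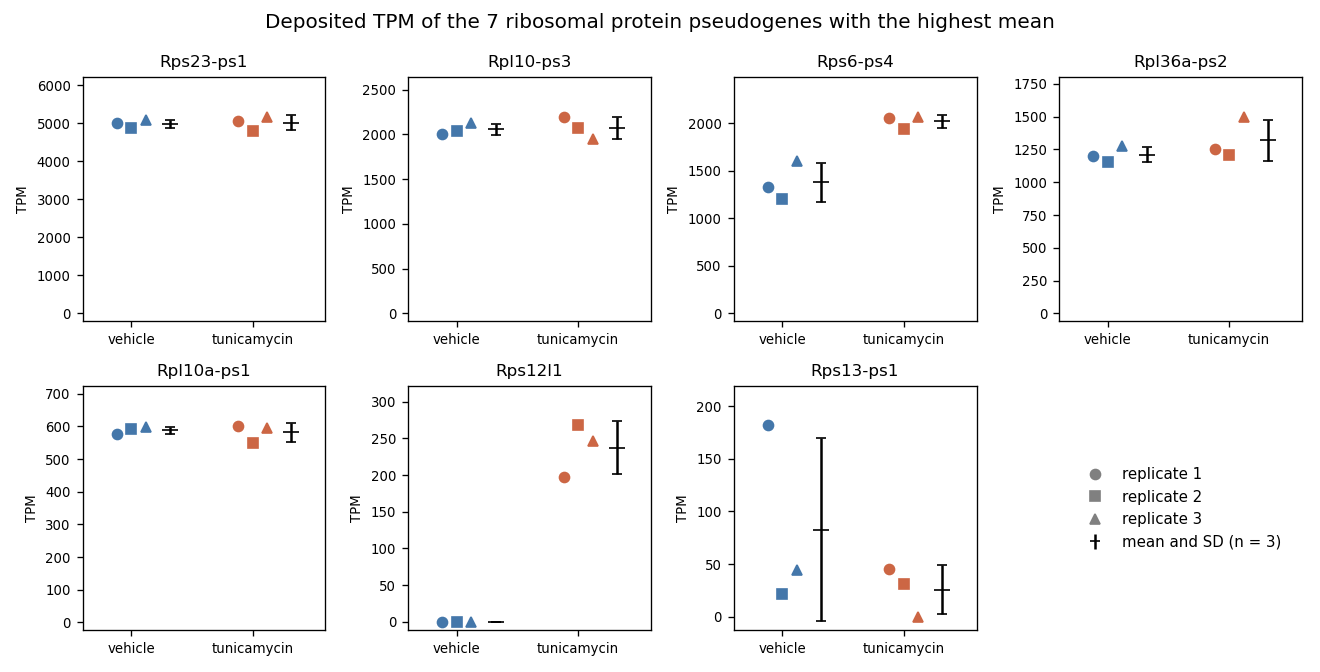
Deposited TPM (vertical axes) of the 7 members with the highest mean, by group, with 1 point per library and the mean and SD (n = 3) in black. Rps12l1 is at 0 in each vehicle library and between 197.2 and 267.5 TPM in tunicamycin, and Rps6-ps4 is higher in every tunicamycin library than in any vehicle library; Rps13-ps1 spreads from 0 to 182.6 TPM, so its vehicle SD bar reaches below 0.

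The other 3 abundant members are copies of large-subunit genes, and their groups overlapped. Rpl10-ps3, annotated as protein-coding and with an open reading frame as long as that of Rpl10, had 2007, 2035 and 2127 TPM in vehicle and 2199, 2066 and 1954 TPM in tunicamycin. Rpl36a-ps2, which lies within Ddah1 on the same strand, had 1201, 1157 and 1276 TPM in vehicle and 1253, 1210 and 1501 TPM in tunicamycin. Rpl10a-ps1 had 576.6, 591.7 and 597.3 TPM in vehicle and 602.5, 548.7 and 593.9 TPM in tunicamycin. The 95% intervals of their log2 fold changes were -0.14 to 0.15, -0.11 to 0.41 and -0.18 to 0.09 in the same order. Their parents were not analysed here. Of the 31-base windows, 96.2% are also in the parent for Rpl10-ps3, and all are for Rpl36a-ps2 and Rpl10a-ps1. These levels therefore depend on how such reads were divided, which was not tested.

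Rps13-ps1 varied between libraries of the same group more than between the groups. Its counts were 1816, 214 and 587 in vehicle and 662, 471 and 0 in tunicamycin. In TPM this was 182.6, 21.43 and 44.47 against 45.57, 30.96 and 0, and the highest vehicle library was 8.52 times the lowest. The log2 fold change was -1.70 with a 95% interval from -6.02 to 2.62 (edgeR adjusted p = 0.938). Rps13-ps2 had 5, 4 and 5 counts in vehicle and 19, 23 and 0 in tunicamycin, so both were at 0 in tunicamycin replicate 3. Rps13-ps4, with 26, 38 and 37 counts in vehicle and 59, 105 and 53 in tunicamycin, was present in that library. In Rps13-ps1, 87.2% of the 31-base windows are also in Rps13 and 7.7% are in no other gene. In Rps13-ps2 all of them are in Rps13. These counts therefore depend on how reads found in both parent and copy were divided, which was not tested.

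Rps13 itself, a small-subunit gene, varied little, with 2918, 3016 and 3199 TPM in vehicle and 3050, 2904 and 3076 TPM in tunicamycin. Rps13-ps1 was 6.26, 0.71 and 1.39% of Rps13 in vehicle and 1.49, 1.07 and 0% in tunicamycin. With Rps13 and its 5 pseudogenes added, the summed level was 3132 ± 105 TPM in vehicle and 3043 ± 85.5 TPM in tunicamycin, and the exact permutation p was 0.4 (2-sided).

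**Figure D3:**
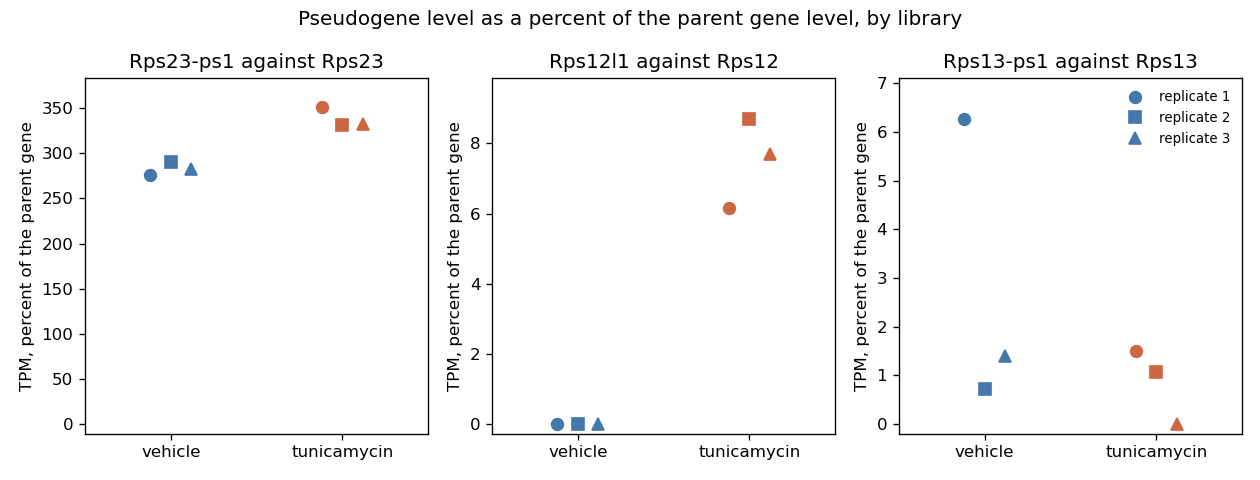
TPM of Rps23-ps1, Rps12l1 and Rps13-ps1 as a percent of the TPM of Rps23, Rps12 and Rps13 (vertical axes, each with its own scale), with 1 point per library. Rps23-ps1 lies at 276 to 290% in vehicle and 331 to 351% in tunicamycin, Rps12l1 leaves 0 only in tunicamycin, and Rps13-ps1 reaches 6.26% in vehicle replicate 1 and 0 in tunicamycin replicate 3. Every 31-base window of Rps23-ps1 and of Rps12l1 is also in the parent, as are 87.2% of those of Rps13-ps1.

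Among the 9 families with parent values, pseudogenes made up most of the summed TPM in Rps23 alone, at 73.4 to 77.9%. Their share was 0.142 to 8.11% for Rps12, 0.185 to 6.01% for Rps13 and at most 1.07% for Rpl17, Rpl23a, Rpl32, Rpl35, Rpl36 and Rpsa. These shares depend on how reads found in both parent and copy were divided, which was not tested. The ratio to the parent was tested for the 38 pairs in which both genes had counts in at least 3 libraries, and was higher with tunicamycin in 25. It did not overlap between the groups in 6 pairs, all higher (Rps12l1, Rps23-ps1, Rps23-ps2, Rpl17-ps3, Rpl17-ps10 and Rps13-ps5). Rps23-ps2 and Rps13-ps5 had low means of 0.8658 and 0.7011 TPM. A share over all genes was not computed for ratios, but in CPM the groups did not overlap for 12.6% of all genes tested. Each of these 6 had the smallest exact permutation p, 0.1, and the smallest value adjusted over the 38 pairs was 0.475, so no pair could pass at this group size.

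Family sums in TPM and in counts differed for Rpsa. Rpsa encodes a small-subunit protein also known as the laminin receptor. With its 9 pseudogenes it stood at 3443 ± 200 TPM in vehicle and 3824 ± 119 TPM in tunicamycin, without overlap (exact permutation p = 0.1, 2-sided). In counts its log2 fold change was -0.08 with a 95% interval from -0.21 to 0.05 (edgeR adjusted p = 0.892). Added up in counts, 37 of the 46 families could be tested, and 0 passed in either direction by edgeR's quasi-likelihood test. Only 9 parents had values, so the sums of the other families hold pseudogenes alone. At an unadjusted p under 0.05 there was 1 higher family, Rps6 (without Rps6 itself), and 2 lower, Rpl35 and Rpl23a (each with its parent). In TPM, however, the Rpl35 family overlapped between the groups, at 1588 ± 60.2 in vehicle and 1513 ± 82.0 in tunicamycin (exact permutation p = 0.4, 2-sided). The Rpl23a family did not overlap in TPM and was lower.

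Across the members, 85 of 207 (41.1%) passed the filter on low counts and were tested. Rps12l1 was called higher and 0 members were called lower by edgeR, where 0.083% of all 3613 genes tested were called in either direction, 0.0554% higher and 0.0277% lower. At an unadjusted p under 0.05 there were 2 higher members, Rps12l1 and Rps6-ps4, and 1 lower, Rpl31-ps17. That was 3.53% of the members tested, against 6.42% of all genes tested, 3.24% higher and 3.18% lower. DESeq2 called 1 member higher, Rps6-ps4, where it called 0.554% of all genes tested, and gave no adjusted p for Rps12l1. Without its independent filtering it called 2 members higher, Rps12l1 and Rps6-ps4, and 0 lower, where it called 0.637% of all genes tested.

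The groups did not overlap in CPM for 15 members that were higher with tunicamycin and for 1 that was lower, together 18.8% of those tested, against 12.6% of all genes tested, 6.62% higher and 5.95% lower. A low member could pass the filter on low counts through the group where it was higher, as Rps12l1 did. The lack of overlap is then not independent of the filter, so these shares are descriptions only. The same filter was applied to all genes tested. Among the 353 processed pseudogenes tested, 33 were higher and 7 lower without overlap, together 11.3%. That class also leaned higher, and it includes 197 of the 207 members. Besides Rps12l1 and Rps6-ps4 the higher ones had low means, from 0.5139 TPM in Rpl19-ps12 to 8.089 TPM in Rpl5-ps1. Rpl5-ps1 had 7.26, 7.104 and 7.022 TPM in vehicle and 8.488, 8.0 and 10.66 TPM in tunicamycin. Rpsa-ps9 had 4.063, 6.003 and 6.576 TPM in vehicle and 8.58, 8.142 and 7.047 TPM in tunicamycin. Rpl17-ps10 had 13, 10 and 26 counts in vehicle and 36, 51 and 61 counts in tunicamycin, a log2 fold change of 1.17 with a 95% interval from -0.02 to 2.35. The remaining ones were Rpl13a-ps1, Rpl17-ps3, Rpl19-ps11, Rpl21-ps12, Rpl7a-ps10, Rps15a-ps3, Rps6-ps3, Rpsa-ps1 and Rpsa-ps10.

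Rpl31-ps17, the member that was lower, is a copy of the large-subunit gene Rpl31 with 7 substitutions. It had 29, 19 and 28 counts in vehicle and 12, 11 and 15 in tunicamycin, although the tunicamycin libraries were deeper. Its log2 fold change was -1.45 with a 95% interval from -2.82 to -0.08 (edgeR adjusted p = 0.705).

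The fold changes were imprecise for all but a few members. The log2 fold change was above 0 in 50 and below 0 in 35 of the 85 tested, while 50.1% of all genes tested lay above 0. The median was 0.083, against 0.001 for all genes tested. Signs and median, too, are not independent of the filter on low counts. For the processed pseudogenes tested the median was 0.043, with 187 above 0 and 166 below. Intervals held 0 for 82 of the 85. The median half-width of the 95% interval was 0.27 for the 8 members that averaged 5 log2 CPM or more and 1.45 for the others. For a typical low member this interval is wider than a log2 change of 1 on either side.

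**Figure D4:**
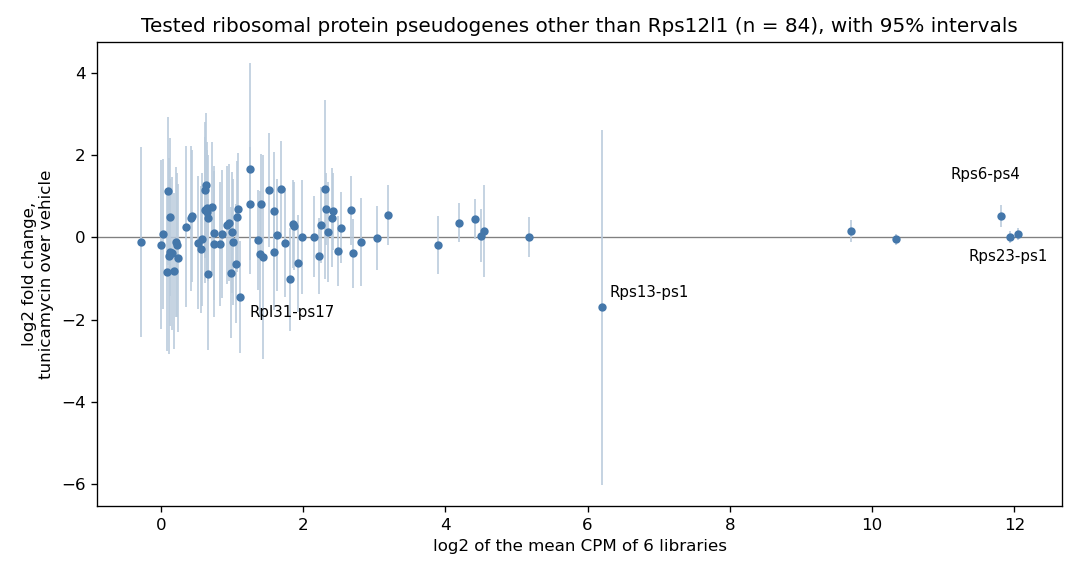
Log2 fold change of tunicamycin over vehicle with its 95% interval (vertical axis) against the log2 of the mean CPM over 6 libraries (horizontal axis) for the 84 tested members other than Rps12l1. Rps6-ps4 is the only abundant member whose interval lies above 0, from 0.25 to 0.80, and Rps13-ps1 has an interval from -6.02 to 2.62.

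The other members among the 15 with the highest mean showed overlapping groups. Rpl21-ps6, a copy of Rpl21 with 15 substitutions and an equal number of gap bases, had 28.61, 18.23 and 27.68 TPM in vehicle and 33.19, 20.45 and 23.28 TPM in tunicamycin. Rpl36-ps12, within Sumf1, had 13.12, 9.995 and 22.68 TPM against 13.88, 17.96 and 18.68 TPM. Rpl36a-ps1 had 10.18, 25.49 and 15.98 TPM against 17.49, 13.05 and 13.96 TPM. Rpl9-ps6, which is annotated as protein-coding and differs from Rpl9 by 1 substitution, had 18.7, 8.175 and 7.815 TPM against 12.79, 6.705 and 18.31 TPM. Rps15a-ps7 and Rpl22-ps1 had means of 6.526 and 5.767 TPM.

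The functional ribosomal protein genes were compared from a list of the cytosolic ribosome, of which 23 had values and all 23 were tested. By edgeR's quasi-likelihood test 0 passed in either direction, while 8 were lower and 0 higher at an unadjusted p under 0.05 (34.8%, against 6.42% of all genes tested). DESeq2 called 4 lower, Rpl23, Rpl35, Rps23 and Rps7, where it called 0.554% of all genes tested. With a replicate block edgeR called 5 lower, these 4 and Rpl37, where it called 0.996% of all genes tested. The log2 fold change was below 0 in 18 of 23 with a median of -0.081. The groups did not overlap in 9 that were lower and in 1 that was higher, together 43.5%, against 12.6% of all genes tested. Among the most abundant, Rplp1, a protein of the ribosomal stalk, had 11130, 10640 and 11440 TPM in vehicle and 10230, 9522 and 9805 TPM in tunicamycin. Rpl23a had 5614, 5309 and 5698 TPM against 5059, 4929 and 5082 TPM, and Rps29 and Rpl32 overlapped between the groups.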

How the data were processed

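RNA of 3 vehicle and 3 tunicamycin libraries was analysed. Per the submitters' processing notes, the tools were Salmon, bcl2fastq and DESeq2 and the build was GRCm39; they record no version or role. For each gene the authors deposited an estimated count and a TPM value. Estimated counts need not be whole and are not scaled to depth, and TPM is scaled by transcript length and library. How transcripts were summed to genes is not given in the sources used here.

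Expected counts were rounded to whole numbers, filtered with filterByExpr, scaled with TMM factors and fitted in R 4.3.3 with edgeR 4.0.16 (quasi-likelihood F test, 2-sided, robust, Benjamini-Hochberg over 3613 genes, threshold 0.05). limma 3.58.1 and DESeq2 1.42.0 were alternatives. The fit was also run on simulated counts, drawn for each gene separately, without a link between replicate numbers or reads shared between copies. No result given here rests on that run. Levels between genes are compared in TPM. The log2 ratios to the parent use a pseudocount of 0.1 TPM. Intervals and floors cover counting error or the spread between libraries only.

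Symbols, positions and sequences come from GENCODE M21 on GRCm38, which is not the build of the notes; 13627 of 13685 identifiers matched. Identity comes from local alignment with Biopython 1.88 (match 1, mismatch -1, gap opening -3).

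Named members passed the threshold, had groups that did not overlap or an unadjusted p under 0.05, or were among the 15 with the highest mean TPM; their parents and the 4 most abundant other ribosomal protein genes were added. Further genes were named after their values were seen. Members and lists were chosen with earlier results of these data known.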

Additional observations from a re-analysis of the deposited data

How the results depend on the processing

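Rps12l1 kept its direction and its call in all 15 alternatives that gave it an adjusted p and kept it as a gene of its own, from 2.77e-25 to 5.19e-06. DESeq2 gave no adjusted p for it, since its own filtering left 601 of 3613 genes with one. The 2 alternatives below were added after seeing the data. With pseudogenes summed by family, together with the parent in the 9 of 46 families where it had values, 0 of the families passed. In that fit 1 gene of the whole table was higher. DESeq2 without independent filtering called 2 members higher.

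Over all genes, the 2 higher calls became 10 with no filter, 4 with DESeq2, 12 with DESeq2 without independent filtering, 1 with limma at either pseudocount, and 1 to 4 on leaving out a library. The 1 lower call became 2 with DESeq2 size factors, 0 with no composition factor, with limma at either pseudocount and with no robust estimation, 6 with no filter, 16 with DESeq2, 11 without its independent filtering, and 0 to 2 on leaving out a library. The 1 member called higher became 1 to 2 on leaving out a library, with Rps6-ps4 added without vehicle replicate 3. The 0 ribosomal protein genes called lower became 2 with no filter, 4 with DESeq2 and 3 without its independent filtering. The cause of these changes was not tested.

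With a replicate block there were 14 higher and 22 lower genes, 2 higher members (Rps12l1 and Rps6-ps4) and 5 lower ribosomal protein genes. The numbers are not stated to pair the libraries. Deviations from the group means of libraries with the same number correlated at 0.0371, 0.187 and 0.107 over all genes tested, and at 0.303, 0.306 and 0.316 over genes that averaged 5 log2 CPM or more. Every library correlated best with its own number, a hint from the data and not from the design. The plasma cell markers Igkc, Igha and Jchain also followed the number. Igkc, for example, stood at 103.95, 244.97 and 38.23 TPM in vehicle and at 105.27, 262.61 and 26.98 TPM in tunicamycin. Mzb1, the only other listed plasma cell marker with values, did not, at 1.02 TPM or less. Whether libraries with the same number share a cell preparation is not stated. The main test did not use the number.

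The summed level of Rps12 and its pseudogenes differed by 0.119 in TPM and 0.025 in CPM (log2, exact permutation p = 0.8). Of 570 alternative log2 fold changes of 37 named genes, 532 kept direction and call, 8 newly passed and 30 changed sign without passing. Those outside leave-one-out were Rpl36 (0.002 with no composition factor, 0.05 with limma), Rps12 (0.004 and 0.014), Rps13 (0.026 with no composition factor), Rps29 (0.001 likewise) and Rpsa (0.152 with limma). On leaving out a library the log2 fold change ran from -0.041 to 0.058 for Rpl10-ps3, from -0.074 to 0.007 for Rpl10a-ps1, from -0.219 to 0.164 for Rpl21-ps6, from -0.196 to 0.487 for Rpl36-ps12, from -0.452 to 0.189 for Rpl36a-ps1, from -0.244 to 0.654 for Rpl9-ps6, from -0.088 to 1.133 for Rps15a-ps7, from -0.096 to 0.018 for Rpl17, from -0.086 to 0.029 for Rpl36, from -0.072 to 0.013 for Rps12, from -0.064 to 0.057 for Rps13 and from -0.126 to 0.066 for Rps29. The precision of low members rests on counts, on the spread between libraries and on 3 libraries per group, whose parts were not separated.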
